A study of Mus musculus with 12 samples.

Results

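The ON bipolar cell mGluR6 cascade was examined here through 9 genes chosen by name: Grm6, Trpm1, Nyx, Gpr179, Lrit3, Pcp2, Prkca, Cabp5 and Vsx1. All 9 were found among the 17579 genes of the count table. RNA-seq was performed on R6/1 retinas, wt retinas, R6/1 striata and wt striata, with 3 libraries per group and 12 in total. R6/1 mice carry a transgene with exon 1 of human HTT and an expanded CAG repeat as a model of Huntington's disease, and their wt littermates lack it. The transgene is driven by the human HTT promoter and is not restricted to bipolar cells. All animals were untreated males of 13 to 15 weeks on a C57Bl/6 background. RNA of 3 to 4 mice was pooled for each library, so that p-values measure the spread of pools rather than of single mice. Striatal and retinal RNA came from the same mice in both genotypes.

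ON bipolar cells are interneurons of the inner retina that depolarise when light falls on the photoreceptors. In darkness, glutamate from rods and cones binds the receptor mGluR6 on their dendrites, and the receptor keeps the cation channel TRPM1 closed through the G protein Go. Light lowers glutamate release, the G protein is switched off by an RGS complex and the channel opens, which gives the b-wave of the electroretinogram. Loss of the receptor, the channel or their scaffolds leads to congenital stationary night blindness in humans and mice.

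The 9 genes cover the receptor (Grm6), its channel (Trpm1) and the orphan receptor GPR179 (Gpr179) that anchors the RGS complex. Nyctalopin (Nyx) and LRIT3 (Lrit3) are leucine-rich repeat proteins needed for the channel to sit at the dendritic tips. Which retinal cells the Lrit3 transcript came from was not tested. The set also includes Pcp2, a modulator of Go signalling in ON bipolar cells that is best known from cerebellar Purkinje cells. Prkca, protein kinase C alpha, is the usual marker of rod bipolar cells. Cabp5, a calcium-binding protein, is present in rod bipolar cells and in some ON and OFF cone bipolar cells, and Vsx1, a homeobox factor, is expressed in cone bipolar cells of which most are OFF types. The set is therefore not restricted to ON bipolar cells.

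In GRCm38 the genes lie apart except for the 3 on chromosome 11 and the 2 on chromosome 7, which are themselves far from each other. Grm6 lies at chr11:50850685-50866208 on the plus strand, Gpr179 at chr11:97332109-97352077 on the minus strand and Prkca at chr11:107933387-108343928 on the minus strand. Trpm1 lies at chr7:64153835-64269775 and Cabp5 at chr7:13398132-13408887, both on the plus strand. Nyx lies at chrX:13466110-13489313 on the plus strand, and Lrit3 at chr3:129787881-129804030, Pcp2 at chr8:3623371-3625545 and Vsx1 at chr2:150680702-150689360 on the minus strand.

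The 250 bases before the RefSeq start of 4 of these genes are shown because 3 of the windows hold a motif that was searched. These 4 genes were lower in R6/1 retinas, as were all 9 of the set. The motifs were TAATCC, the core bound by the photoreceptor and bipolar factors CRX and OTX2, and TAATTA, a homeodomain palindrome, each on both strands and without overlap between them. The sequences are from RefSeq on GRCm38.p6 and run 5′ to 3′ in the direction of the gene, with motif matches in capitals (TAATCC on the opposite strand reads GGATTA). The windows are chr11:50850435-50850684 on the plus strand for Grm6, chr7:64153585-64153834 on the plus strand for Trpm1, chr7:13397905-13398154 on the plus strand for Cabp5 and chr8:3625283-3625532 on the minus strand for Pcp2, whose window belongs to the third of its 4 RefSeq starts. The Pcp2 window lies within the annotated gene, so it is not upstream of every start of Pcp2.
Grm6: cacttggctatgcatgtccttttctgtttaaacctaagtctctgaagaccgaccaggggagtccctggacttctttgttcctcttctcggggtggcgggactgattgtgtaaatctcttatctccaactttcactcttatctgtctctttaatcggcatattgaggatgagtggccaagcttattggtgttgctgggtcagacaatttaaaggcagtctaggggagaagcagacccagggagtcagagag
Trpm1: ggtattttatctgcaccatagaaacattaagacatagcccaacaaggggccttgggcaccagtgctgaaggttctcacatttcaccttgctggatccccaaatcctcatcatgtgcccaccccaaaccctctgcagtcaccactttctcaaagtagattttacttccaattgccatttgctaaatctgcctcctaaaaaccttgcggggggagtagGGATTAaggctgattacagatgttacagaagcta
Cabp5: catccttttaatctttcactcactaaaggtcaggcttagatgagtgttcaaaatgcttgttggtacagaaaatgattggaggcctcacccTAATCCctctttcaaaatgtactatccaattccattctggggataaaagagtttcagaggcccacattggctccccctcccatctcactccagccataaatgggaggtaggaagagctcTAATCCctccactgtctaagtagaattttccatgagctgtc
Pcp2: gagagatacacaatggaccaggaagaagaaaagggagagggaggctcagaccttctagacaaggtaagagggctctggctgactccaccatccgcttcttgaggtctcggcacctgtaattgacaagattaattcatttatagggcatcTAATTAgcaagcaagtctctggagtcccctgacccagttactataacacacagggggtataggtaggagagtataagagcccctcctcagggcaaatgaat
In the Trpm1 window the first base of the match lay 34 bases before the start, in the Cabp5 window the 2 matches lay 160 and 41 bases before it, and in the Pcp2 window the TAATTA match lay 101 bases before it. Grm6 had neither motif in this window. RefSeq gave 13 such windows for the 9 genes, of which the 2 shown for Trpm1 and Cabp5 held TAATCC and 1 held TAATTA. Of 32851 windows of this length over all genes, 6.25% held TAATCC and 4.84% held TAATTA, and a match describes the letters only.

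The libraries held between 17024353 and 17926885 counts in R6/1 retina, between 14070445 and 18661772 in wt retina, between 15885261 and 22432431 in R6/1 striatum and between 17206379 and 20159277 in wt striatum. Summed over the marker genes of each cell type, rod genes reached 24926 to 33716 CPM (counts scaled to the same library size of 1e6) in R6/1 retinas, against 73930 to 82595 CPM in wt retinas, and 14 of 14 were lower in R6/1. All 9 cone genes were also lower, with sums of 158 to 183 CPM in R6/1 and 1142 to 1290 CPM in wt retinas. Of the 8 microglial genes 5 were higher, with sums of 57.6 to 68.3 CPM in R6/1 and 35.6 to 37.4 CPM in wt. One R6/1 retina library, number 3, stood apart with 635 CPM over the lens genes, against 2.88 and 7.77 CPM in the other R6/1 retinas and 7.45 to 55.9 CPM in wt. Mitochondrial genes took 8.76% to 9.63% of counts in R6/1 and 7.61% to 8.18% in wt retinas, and their part in the results below was not tested. In the striatum, the library labelled wt 2 had a mean Spearman correlation of 0.9923 with the other wt striata and 0.9936 with the R6/1 striata.

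All 9 genes of the set had lower transcript levels in R6/1 than in wt retinas. In edgeR's quasi-likelihood test with Benjamini-Hochberg adjustment over 16582 genes, 9 of 9 passed an adjusted p of 0.05, where 12.7% of all genes tested were called lower and 9.58% higher. The members had a median log2 fold change of −0.71, against 0.01 over all genes tested. In each of the 9, all 3 R6/1 libraries lay below all 3 wt libraries, which held for 20.3% of all genes. The 9 genes were chosen with earlier results of these data known, so the shares over all genes are no yardstick for them. In bulk tissue, fewer bipolar cells and less RNA per cell cannot be told apart.

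**Figure D1:**
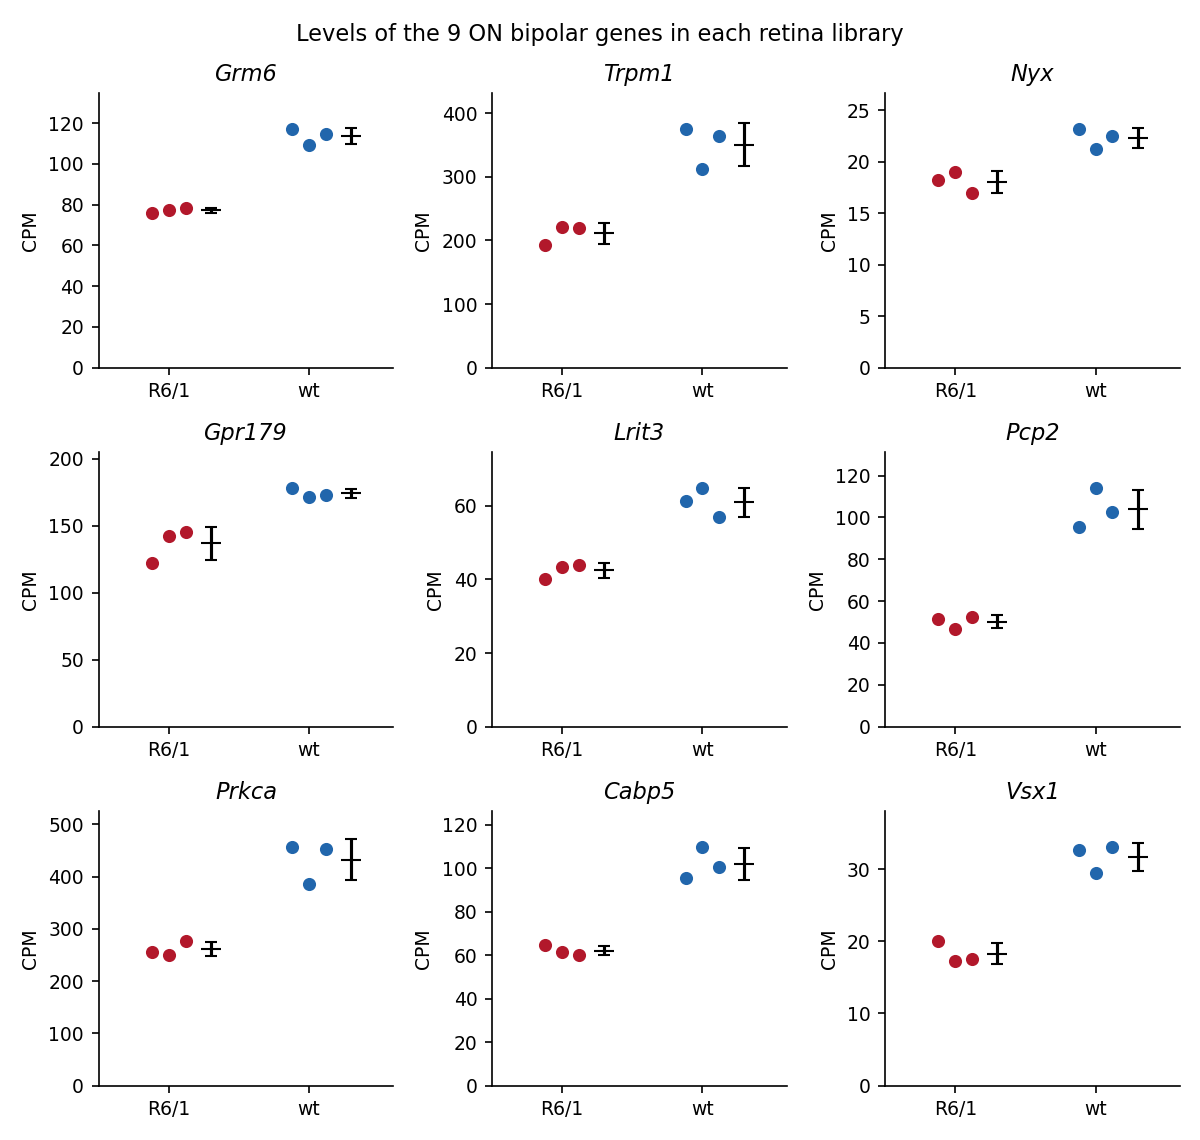
Levels of the 9 genes in CPM (vertical axes, each from 0) in the 3 R6/1 retina libraries (red, left) and the 3 wt retina libraries (blue, right), with the mean and SD beside the points. In every panel the R6/1 points lie below the wt points, with the widest gap relative to wt for Pcp2 (means of 50.2 and 104 CPM) and the narrowest for Nyx (18.0 and 22.3 CPM).

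The receptor was considered first. Grm6 was measured at 75.9, 77.4 and 78.4 CPM in R6/1 retinas, against 117, 109 and 114 CPM in wt retinas. The R6/1 libraries lay within a few CPM of each other and well below the lowest wt library. The means were 77.2 ± 1.28 CPM in R6/1 and 114 ± 4.0 CPM in wt (SD, n = 3 pools each), a log2 fold change of −0.56 ± 0.06 (SE, edgeR, adjusted p = 3.40e-06), with a 95% interval of −0.68 to −0.43.

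Trpm1, the channel that mGluR6 controls, was at 192, 221 and 220 CPM in R6/1 retinas, against 375, 312 and 365 CPM in wt retinas. The lowest wt library, number 2, was still far above every R6/1 library. The log2 fold change was −0.73 ± 0.08 (SE, edgeR, adjusted p = 4.26e-06), with an interval of −0.90 to −0.57. Trpm1 is also known from pigment cells, of whose 8 marker genes 0 were called in either direction by edgeR, DESeq2 or limma-voom (2 at an unadjusted p under 0.05, both higher). The pigment genes summed to 37.1 to 54.9 CPM in R6/1 and 33.2 to 40.7 CPM in wt retinas, with a median log2 fold change of 0.60 over the list, and their part in the Trpm1 result was not tested.

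The scaffold genes fell by less or by about as much as the receptor. Lrit3 was at 40.2, 43.5 and 43.9 CPM in R6/1 retinas, against 61.3, 64.8 and 56.9 CPM in wt retinas, with no overlap and a log2 fold change of −0.52 ± 0.07 (SE, edgeR, adjusted p = 4.50e-05). Gpr179 was at 122, 143 and 146 CPM in R6/1 retinas, against 178, 172 and 173 CPM in wt retinas. Here R6/1 library 1 was the low one, the wt libraries lay close together and the groups did not overlap. Gpr179 thus had a log2 fold change of −0.35 ± 0.07 (SE, edgeR, adjusted p = 0.00113), and a single fit of all 12 libraries did not call it (edgeR, adjusted p = 0.0640).

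Nyx showed the smallest change of the set. It was measured at 18.2, 19.0 and 16.9 CPM in R6/1 retinas, against 23.1, 21.2 and 22.5 CPM in wt retinas. The highest R6/1 and the lowest wt library differed by little, although they did not cross. For Nyx the log2 fold change was −0.31 ± 0.09 (SE, edgeR, adjusted p = 0.0241), with an interval of −0.50 to −0.11. This call was lost in DESeq2 (adjusted p = 0.0566), where 8 of 9 were called lower and 10.8% of all genes were, and without wt retina 1, wt retina 3 or R6/1 retina 3 (edgeR, adjusted p = 0.0977, 0.0716 and 0.0921), each with a log2 fold change below 0, as it was in a single fit of all 12 libraries (edgeR, adjusted p = 0.116).

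Pcp2 showed the largest change of the set. It was at 51.6, 46.7 and 52.3 CPM in R6/1 retinas, against 95.3, 114 and 103 CPM in wt retinas. Every R6/1 library was near one level, and the lowest wt library was far above them. This gave a log2 fold change of −1.05 ± 0.08 (SE, edgeR, adjusted p = 3.69e-08), with an interval of −1.21 to −0.89. That interval overlapped those of Vsx1 and Trpm1 and did not reach those of Prkca, Cabp5, Grm6, Lrit3, Gpr179 or Nyx. Pcp2 lies wholly within Pet100, a mitochondrial assembly factor gene on the opposite strand (chr8:3621548-3625848). The strand setting of the counting was not stated, although the library kit preserves strand. Pet100 itself was at 8.46, 7.98 and 8.43 CPM in R6/1 and 9.08, 8.55 and 5.98 CPM in wt retinas, levels far below those of Pcp2, with a log2 fold change of 0.08 ± 0.15 (SE, edgeR, adjusted p = 0.760).

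Prkca, the rod bipolar kinase, was at 257, 250.03 and 276 CPM in R6/1 retinas, against 456, 387 and 454 CPM in wt retinas. As for Trpm1, wt library 2 was the lowest of its group and still above all R6/1 libraries. The log2 fold change was −0.73 ± 0.07 (SE, edgeR, adjusted p = 1.16e-06).

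Cabp5 was at 64.5, 61.5 and 60.3 CPM in R6/1 retinas, against 95.3, 109.6 and 101 CPM in wt retinas. The R6/1 libraries were alike and lay below the wt range, with a log2 fold change of −0.71 ± 0.07 (SE, edgeR, adjusted p = 8.31e-07). Vsx1, the cone bipolar factor, was at 20, 17.3 and 17.5 CPM in R6/1 retinas, against 32.6, 29.4 and 33.0 CPM in wt retinas. Its groups did not overlap either, and the log2 fold change was −0.80 ± 0.09 (SE, edgeR, adjusted p = 6.85e-06), with an interval of −0.99 to −0.60.

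As a share of the wt mean, the R6/1 means ranged between 48.3% for Pcp2 and 80.9% for Nyx. Vsx1 (57.7%), Trpm1 (60.2%), Prkca (60.4%) and Cabp5 (60.9%) were close to each other, and Grm6 (68.0%), Lrit3 (69.7%) and Gpr179 (78.6%) followed. The intervals of Vsx1, Trpm1, Prkca and Cabp5 overlapped, so these 4 were not ordered beyond their error. Among all genes tested in the retina, 4.41% had a lower log2 fold change than Pcp2, 11.5% a lower one than Grm6 and 19.8% a lower one than Nyx.

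The size of the fall depended on how the libraries were scaled. With library totals in place of TMM factors the median of all genes moved to 0.13 on the log2 scale and Nyx was no longer called, so that 8 of 9 members were lower beside 8.71% of all genes (log2 fold change −0.19, edgeR, adjusted p = 0.126). When scaling used 26 other bipolar genes (rod bipolar, pan-bipolar and OFF cone bipolar genes, an alternative chosen after seeing the data), the median of all genes moved to 0.37. These 26 genes are not restricted to bipolar cells, since photoreceptors also express Otx2 and amacrine and ganglion cells also express Isl1. The scaling therefore does not measure bipolar cell content. Against that reference 6 of the 9 genes were called lower, where 4.69% of all genes were: Pcp2 (−0.69), Vsx1 (−0.44), Trpm1 (−0.37), Prkca (−0.37), Cabp5 (−0.36) and Grm6 (−0.20). Lrit3 was not called (−0.16, edgeR, adjusted p = 0.102), and Gpr179 (0.01, edgeR, adjusted p = 0.911) and Nyx (0.05, edgeR, adjusted p = 0.670) changed sign and were not called. Each scaling moved all genes alike, and relative to the median of all genes the log2 fold changes stayed at −0.32 for Nyx, −0.57 for Grm6 and −1.06 to −1.07 for Pcp2.

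**Figure D2:**
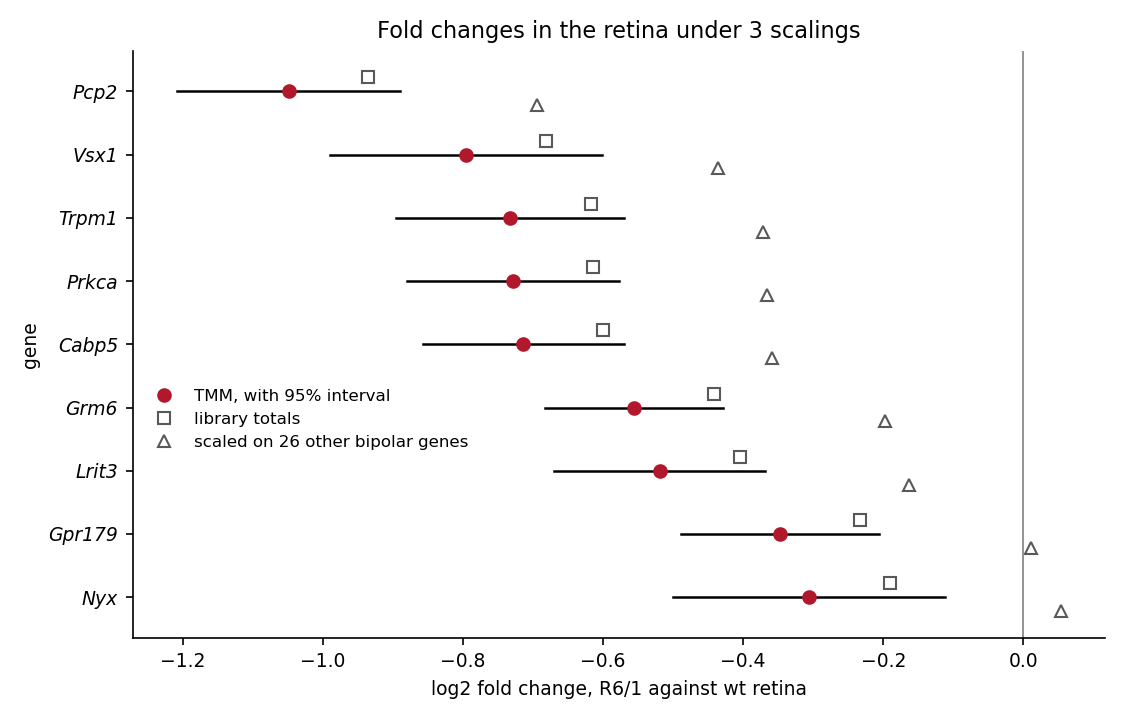
Log2 fold changes of the 9 genes between R6/1 and wt retinas (horizontal axis, 0 means no difference) with TMM scaling and its 95% interval (filled points), with library totals (squares) and with scaling on 26 other bipolar genes (triangles). With TMM all points lie below 0, between −1.05 for Pcp2 and −0.31 for Nyx, and with scaling on bipolar genes Nyx lies at 0.05 and Gpr179 at 0.01.

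Levels of different genes were compared as CPM per kb of the longest coding transcript. In R6/1 retinas Trpm1 had the highest value (mean 36.9, range 33.6 to 38.7 CPM per kb), and Cabp5 (34.9, 33.9 to 36.3), Pcp2 (34.7, 32.3 to 36.1) and Prkca (31.0, 29.7 to 32.9) followed with ranges that overlapped their neighbours. In wt retinas Pcp2 was first (71.8, 65.9 to 78.7 CPM per kb), just above the range of Trpm1 (61.4, 54.7 to 65.6), and Cabp5 (57.3, 53.6 to 61.7) and Prkca (51.4, 46.0 to 54.3) came next with overlapping ranges. In R6/1 retinas the ranges of Trpm1, Cabp5 and Pcp2 overlapped, so that these 3 were not ordered.

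Grm6 and Lrit3 formed a lower tier in both genotypes. Grm6 had 17.8 CPM per kb in R6/1 (17.5 to 18.1) and 26.2 in wt retinas (25.2 to 27), and Lrit3 had 17.3 in R6/1 (16.4 to 17.9) and 24.8 in wt (23.2 to 26.4), so that their ranges overlapped within each genotype. Gpr179 lay below them at 14.9 CPM per kb in R6/1 and 18.9 in wt, and Vsx1 (4.82 in R6/1 and 8.36 in wt) and Nyx (3.48 in R6/1 and 4.30 in wt) were last. These orders depended on the length used. Over the union of exons, Trpm1, which has 23 annotated transcripts, was at 14.3 CPM per kb in R6/1 and 23.8 in wt retinas. On that scale Prkca (29.0) and Pcp2 (27.5) came first in R6/1 retinas, and Gpr179 (14.3) was level with Grm6 (14.2).

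To see whether the partners of the cascade moved as well, 8 genes of the G protein and its RGS complex were examined. All 8 were tested, and 7 were lower and 1 higher in R6/1 retinas, with a median log2 fold change of −0.52 against 0.01 over all genes. Rgs9bp, which anchors RGS proteins in photoreceptors and ON bipolar cells, was at 545, 522 and 555 CPM in R6/1 retinas, against 1266, 1296 and 1190 CPM in wt retinas, with no overlap (log2 fold change −1.21 ± 0.07, SE, edgeR, adjusted p = 3.14e-09). Rgs11, one of the RGS proteins that switch off Go in these cells, was at 23.0, 21.6 and 23.4 CPM in R6/1 retinas, against 37.4, 35.0 and 37.3 CPM in wt retinas (−0.69 ± 0.08, SE, edgeR, adjusted p = 4.59e-06). Gnb5, the beta subunit that binds both RGS proteins, also fell (−0.61 ± 0.07, SE, edgeR, adjusted p = 6.79e-06).

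The exception was Gnb3, the G protein beta subunit of cones and ON bipolar cells. It was at 342, 352 and 330 CPM in R6/1 retinas, against 207, 195 and 216 CPM in wt retinas, and every R6/1 library was far above every wt library. The log2 fold change was 0.73 ± 0.06 (SE, edgeR, adjusted p = 2.07e-07), about as large as that of Trpm1 in the other direction. Gnb3 was higher in R6/1 while the cone genes, as summed above, were lower. The remaining members of the list, named after their values were seen, were lower too: Gng13, the gamma subunit of this G protein (−0.55), Rgs7, the other RGS protein of the complex (−0.49), Rgs7bp, its membrane anchor (−0.23), and Gnao1, the alpha subunit of Go (−0.23).

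On the photoreceptor side of the synapse 4 of 8 genes were lower and 0 higher by edgeR (0 higher at an unadjusted p under 0.05, and 0 by DESeq2 and limma-voom), with a median of −0.15, and DESeq2 called 4 lower and limma-voom 3. Cacna1f, the calcium channel subunit of photoreceptor terminals, had the smallest p (−0.65 ± 0.07, SE, edgeR, adjusted p = 2.88e-06), and Elfn2, an adhesion protein that binds metabotropic glutamate receptors across the synapse, also fell (−0.46 ± 0.07, SE, edgeR, adjusted p = 1.53e-04). Cacnb2 (−0.23, edgeR, adjusted p = 0.0284) and Elfn1, the rod adhesion protein that binds mGluR6 (−0.23, edgeR, adjusted p = 0.0376), were lower by little. With the shift of all genes under scaling on bipolar genes both were above 0 (0.14 and 0.12).

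Of 8 further rod bipolar genes, 4 were lower and 0 higher by edgeR (1 higher at an unadjusted p under 0.05, and 0 by DESeq2 and limma-voom), with a median of −0.44, and DESeq2 and limma-voom each called 5 lower. Sebox, a homeobox factor, was at 20, 14.6 and 19.5 CPM in R6/1 retinas, against 40.0, 38.7 and 40.5 CPM in wt retinas. Each R6/1 library was far below each wt library (log2 fold change −1.14 ± 0.10, SE, edgeR, adjusted p = 8.54e-07). Strip2, a subunit of the STRIPAK phosphatase complex, ranged between 60.1 and 74.5 CPM in R6/1 and between 111 and 156 CPM in wt retinas (−1.01 ± 0.14, SE, edgeR, adjusted p = 0.00222). The membrane proteins Vstm2b (−0.52) and Lrtm1 (−0.37) were also lower (edgeR, adjusted p = 6.87e-04 and 8.90e-04). In wt mice 7 of the 8 genes were called higher in retina than in striatum (edgeR, 6379 of 16864 over all genes). Strip2 was not (log2 fold change −0.12, edgeR, adjusted p = 0.583), so the list does not isolate rod bipolar cells.

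Among 10 bipolar transcription factors and pan-bipolar genes, 6 were lower and 1 was higher, with a median of −0.30 (5 lower and 1 higher by DESeq2 and by limma-voom). Isl1, a factor of ON bipolar cells that amacrine and ganglion cells also express, fell (−0.50 ± 0.07, SE, edgeR, adjusted p = 3.95e-05), as did Neurod4, a basic helix-loop-helix factor of bipolar cell development (−0.39, edgeR, adjusted p = 2.08e-04) and Irx6, a homeobox factor of cone bipolar cells (−0.73, edgeR, adjusted p = 7.51e-04). Otx2, the factor of photoreceptors and bipolar cells that binds the TAATCC motif, was instead higher, at 352, 340 and 345 CPM in R6/1 retinas, against 267, 265 and 267 CPM in wt retinas. These groups were far apart relative to their spread (0.38 ± 0.06, SE, edgeR, adjusted p = 1.07e-04), but the call was lost in a single fit of all 12 libraries (edgeR, adjusted p = 0.533).

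Genes listed for OFF cone bipolar cells, which lack the mGluR6 cascade, were lower as well. In wt mice 4 of them were called lower in retina than in striatum (edgeR, 6494 of 16864 over all genes), so the list does not isolate these cells. Of 8 such genes, 5 were lower and 0 higher by edgeR (0 higher at an unadjusted p under 0.05, and 0 by DESeq2 and limma-voom), with a median of −0.37, and DESeq2 and limma-voom each called 4 lower. Neto1, an auxiliary subunit of kainate receptors, had the largest fall of this list at 19.5, 19.3 and 18.4 CPM in R6/1 retinas, against 40.8, 36.7 and 39.2 CPM in wt retinas (−1.03 ± 0.08, SE, edgeR, adjusted p = 8.52e-08). The kainate receptor subunit Grik1 (−0.37, edgeR, adjusted p = 8.22e-04), the synaptotagmin Syt2 (−0.52, edgeR, adjusted p = 8.90e-04) and the tachykinin receptor Tacr3 (−0.36, edgeR, adjusted p = 0.00270) fell too.

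Markers of other retinal neurons moved in the same direction. Lower calls were made for 5 of 7 amacrine genes (median −0.60), 7 of 8 ganglion cell genes (−0.56) and 4 of 5 horizontal cell genes (−0.60), beside all 14 rod genes (−1.11) and all 9 cone genes (−2.06). The medians of these neuronal lists were near that of the 9 cascade genes (−0.71), apart from the rod and cone lists, which were lower. Of 8 Müller glia genes 1 was lower and 1 higher (median 0.06). The part of cell composition in the lower levels of the cascade genes was not tested.

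**Figure D3:**
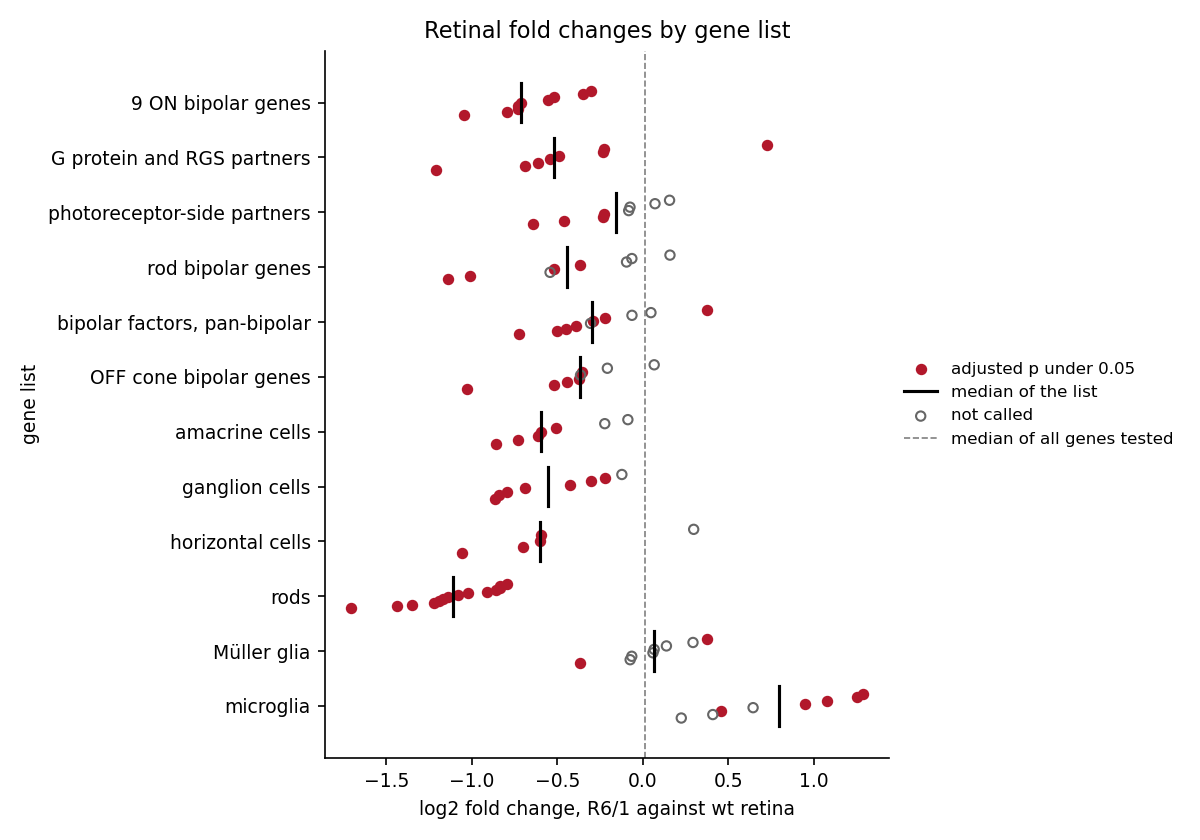
Log2 fold changes between R6/1 and wt retinas (horizontal axis) of the 9 cascade genes and of 11 other lists of partner and cell type genes (rows), 1 point per gene, filled where the adjusted p was under 0.05, with the median of each list as a bar and the median of all genes (0.01) as a dashed line. All 9 cascade genes are filled and lie below 0, Gnb3 (0.73) and Otx2 (0.38) lie to the right within lists that otherwise lie mostly to the left, and the cone, pigment and lens lists are not drawn.

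In the striatum, which has no bipolar cells, 5 of the 9 genes (Grm6, Lrit3, Pcp2, Cabp5 and Vsx1) were listed at 0 in all 6 libraries. No gene of the deposited table summed to between 1 and 10 counts over the 6 libraries of a tissue, so that a listed 0 may stand for a low count. Of the others, Trpm1 was at 0.184, 0.126 and 0.487 CPM in R6/1 striata, against 0.177, 0 and 0.483 CPM in wt striata. Nyx was at 0.858, 0.504 and 0.379 CPM in R6/1 and 0.530, 0.801 and 0.966 CPM in wt striata, and Gpr179 at 0.981, 1.13 and 0.433 CPM in R6/1 and 0.471, 1.40 and 0.483 CPM in wt striata. For these 3 genes the genotypes overlapped and a difference was not detectable at this depth.

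Prkca was the one member with a substantial striatal level. It was at 143, 164 and 163 CPM in R6/1 striata, against 240, 166 and 245 CPM in wt striata. The groups did not overlap, as for 12.9% of all genes with R6/1 lower, but wt library 2 lay just above the R6/1 libraries while the other wt libraries were far above them. The log2 fold change was −0.47 ± 0.15 (SE, edgeR, unadjusted p = 0.0140, adjusted p = 0.148), with an interval of −0.82 to −0.13. Left out in turn, single libraries gave values between −0.63 (without wt striatum 2, edgeR, adjusted p = 0.00208) and −0.38 (without wt striatum 3, edgeR, adjusted p = 0.366), and the call was made only without wt striatum 2. With the replicate number as a block Prkca was not called (edgeR, adjusted p = 0.221). Without both libraries numbered 2 it was at −0.67 (edgeR, adjusted p = 8.04e-05), but this alternative was chosen after seeing the data and removes the wt library nearest to R6/1.

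Thus 0 of the 4 members tested in the striatum were called by edgeR, where 1.32% of all genes were called lower and 0.132% higher. Prkca was the only one at an unadjusted p under 0.05, DESeq2 called it (adjusted p = 0.0246), a single fit of all 12 libraries called it (edgeR, adjusted p = 0.0444) and limma-voom called 0. The log2 fold changes of the other 3 were 0.30 ± 0.97 for Trpm1, −0.42 ± 0.44 for Nyx and 0.10 ± 0.53 for Gpr179 (SE, edgeR, adjusted p = 0.901, 0.648 and 0.947).

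The genotype effects in both tissues were then set against each other in one model, which took the libraries of both tissues as independent. None of the 4 members measured in both tissues differed between them (0 called by edgeR, DESeq2 and limma-voom, and 0 at an unadjusted p under 0.05), where 8.24% of all genes were called in either direction. For Prkca the effect in retina minus that in striatum was −0.29 ± 0.18 on the log2 scale, with an interval of −0.68 to 0.10 (SE, edgeR, adjusted p = 0.365). The differences for Trpm1 (−1.07 ± 0.85), Gpr179 (−0.46 ± 0.45) and Nyx (0.09 ± 0.31) had wide errors, and their striatal counts were low (SE, edgeR, adjusted p = 0.494, 0.588 and 0.889).

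Several of the partner genes are shared by both tissues. In the striatum 8 of the 8 G protein and RGS genes were tested and 1 was called lower, Rgs11, at 6.80, 8.44 and 8.28 CPM in R6/1 striata, against 19.0, 15.9 and 20.1 CPM in wt striata. The groups were well apart, with a log2 fold change of −1.22 ± 0.13 (SE, edgeR, adjusted p = 0.0102). The call was lost without wt striatum 1, wt striatum 3 or R6/1 striatum 1 (edgeR, adjusted p = 0.0862, 0.0664 and 0.0520). The effect in retina minus that in striatum was 0.49 ± 0.15 for Rgs11 (SE, edgeR, adjusted p = 0.0534). Rgs7bp had −0.68 (edgeR, adjusted p = 0.105), Gng13 −0.62 (0.109), Gnb5 −0.51 (0.105), Rgs7 −0.35 (0.120) and Gnao1 −0.25 (0.153) in the striatum, and none of these 5 was called there by edgeR. In this list 6 of 8 were lower at an unadjusted p under 0.05, where 1923 of all 16728 genes were. DESeq2 called 3 lower and limma-voom 1, where they called 805 and 247 of all genes lower.

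Over the 5 lists together, Rgs11 was the only one of 36 genes tested that was called in the striatum. With the replicate number as a block, 7 were lower and 1 higher, where 7.11% and 2.83% of all genes were. Without wt striatum 2, 9 were lower and 2 higher, where 7.25% and 4.32% of all genes were.

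**Figure D4:**
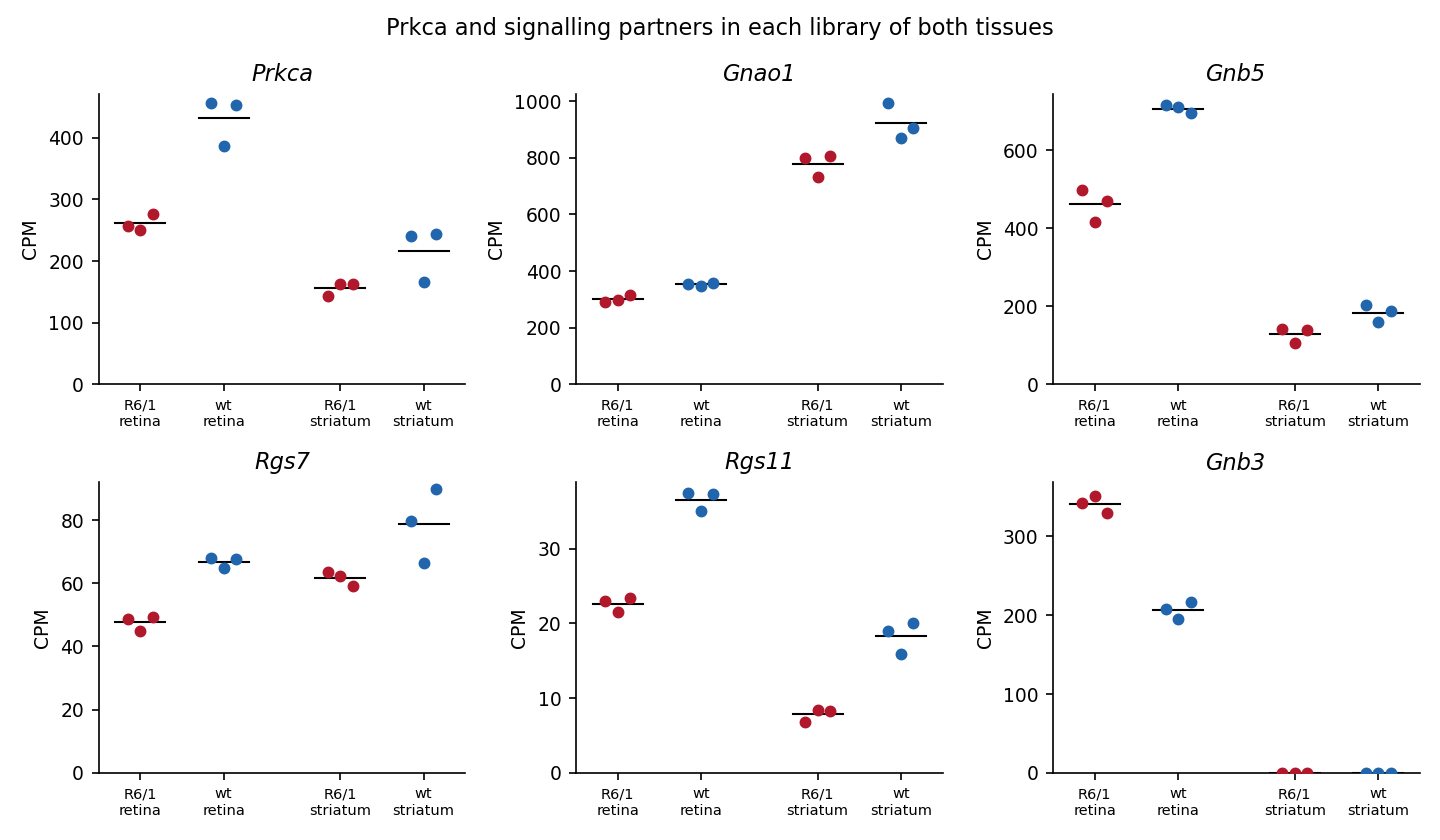
Levels in CPM (vertical axes, each from 0) of Prkca and of 5 G protein and RGS genes in the 3 libraries of R6/1 retina, wt retina, R6/1 striatum and wt striatum, with the group mean as a line (red R6/1, blue wt). Prkca is lower in R6/1 than in wt retinas (261 and 432 CPM on average), wt striatum 2 lies next to the R6/1 striata, and Gnb3 is high in retinas alone among these groups (341 CPM in R6/1 and 206 CPM in wt) and below 1 CPM in striata.

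The tissue comparison showed how closely the set follows the retina. All 9 genes were higher in retina than in striatum within R6/1 mice and within wt mice, where 36.3% and 37.8% of all genes were called higher (edgeR). Both comparisons share their retina and striatum libraries with the genotype comparisons above. The fits took retina and striatum libraries as independent, although both tissues came from the same mice. Trpm1 had a log2 fold change of 9.59 in R6/1 and 10.65 in wt mice, Gpr179 7.24 in R6/1 and 7.69 in wt mice, and Nyx 4.92 in R6/1 and 4.81 in wt mice. Prkca, which striatal cells also express, was higher in retina by 0.68 ± 0.08 in R6/1 and 0.96 ± 0.15 in wt mice (SE, edgeR, adjusted p = 1.36e-05 and 4.12e-04).

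The genes listed at 0 in striatum allow only lower bounds, computed against 10 counts placed in the smallest of the 3 striatal libraries of a genotype, the most that a listed 0 could stand for. Grm6 was at least 378-fold higher in R6/1 and at least 564-fold higher in wt retina than in striatum. Pcp2 was at least 245-fold higher in R6/1 and at least 516-fold higher in wt mice, and Cabp5 at least 303-fold in R6/1 and at least 506-fold in wt mice. For Lrit3 the bounds were 208-fold in R6/1 and 302-fold in wt mice, and for Vsx1 89-fold in R6/1 and 157-fold in wt mice.

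Among 13692 genes with a mean of at least 1 CPM in the retina libraries, those with a profile most like Grm6 over the 12 libraries were sought by the root mean square difference of centred log2 CPM. The closest was Slc1a7, a glutamate transporter of bipolar and photoreceptor terminals (0.120), and then Gabrr1, a rho-type GABA receptor subunit of bipolar terminals (0.129), Cabp5 (0.148), Ankrd33, an ankyrin repeat protein of photoreceptors (0.175) and the orphan receptor gene Gpr152 (0.224). For Trpm1 the closest were Rcvrn, the photoreceptor calcium sensor recoverin (0.542), Grm6 (0.594), Cabp5 (0.619), Slc1a7 (0.622) and Gabrr1 (0.626). Between tissues these genes differ far more than between genotypes, so the measure mostly ranks genes by their retina over striatum difference. The 5 genes closest to Grm6 were listed at 0 in all striata and had means of 96.1 to 111 CPM in wt retinas. For them this difference follows from the retinal level, and the ranking does not show that they change together. In the retina, Slc1a7 was at a mean of 82.4 CPM in R6/1 and 97.5 CPM in wt (log2 fold change −0.24, edgeR, adjusted p = 0.00679) and Gabrr1 at 78.8 CPM in R6/1 and 96.1 CPM in wt (−0.29, edgeR, adjusted p = 0.00837).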

How the data were processed

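Per the labels and the study's methods, RNA from 3 to 4 mice per pool was sequenced after a stranded mRNA preparation (TruSeq) and quantified on GRCm38 with Salmon, with Trimmomatic and CASAVA also named in the submitters' processing notes. The authors deposited estimated counts per gene, already whole numbers, for 12 libraries. Versions, strand setting and annotation are not given in the sources used here. Gene IDs were matched to GENCODE M21 (17527 of 17579 had a symbol).

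Genes with at least 10 counts over the libraries compared were tested with edgeR 4.0.16 (robust quasi-likelihood F-test, TMM, Benjamini-Hochberg, threshold 0.05) in R 4.3.3. CPM used the TMM factors of each tissue, and log2 CPM added a prior count of 2. DESeq2 1.42.0 and voom from limma 3.58.1 served as alternatives, beside other scalings, filters and fits, and leaving out each library. The scripts were tested on simulated counts. The members and gene lists were chosen with earlier results of these data known. One gene of the rod bipolar list is not reported here and was left out of that list and of the scaling on bipolar genes. The text names all members, up to 4 genes with the smallest p in the retina from each of 5 partner lists, and the 5 genes most like Grm6 and Trpm1.

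Whether replicate numbers pair the libraries was checked by correlating deviations from group means. Same-numbered R6/1 and wt striata correlated at 0.275, 0.332 and 0.254 over 10470 genes. R6/1 striatum 3 and wt striatum 1 also correlated, at 0.278, while the other differently numbered striata lay below 0. The numbers thus did not single out partners. Same-numbered retinas and striata correlated at 0.242, 0.119 and 0.179 in R6/1, but at −0.026, 0.019 and 0.00076 in wt mice. The replicate block was run in every comparison as an alternative fit, from the data and not from a label.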

Additional observations from a re-analysis of the deposited data

Results flagged for a closer look

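By the interaction test of edgeR with Benjamini-Hochberg adjustment, the genotype effect differed between retina and striatum for 3 of the 18 named partner and bipolar genes tested. Of all genes, 8.24% were called. The named genes had been picked by the smallest p in the retina, and the interaction test uses the same retina libraries. The share over all genes is therefore no yardstick for them. The effect in retina minus that in striatum was −0.83 for Isl1 (log2 fold change −0.50 in retina and 0.30 in striatum, adjusted p = 0.00280), −1.59 for Rgs9bp (−1.21 in retina and 0.35 in striatum, adjusted p = 0.0146) and −0.42 for Elfn2 (−0.46 in retina and −0.08 in striatum, adjusted p = 0.0210). None of the 3 was called in the striatum (edgeR). Rgs9bp was below 1 CPM in every striatal library. Without R6/1 striatum 2 the difference for Rgs9bp was −1.35 (adjusted p = 0.0905), and that for Elfn2 lost its call without wt retina 2, R6/1 retina 1 or wt striatum 1 (adjusted p = 0.0560, 0.0505 and 0.0520) and with library totals (adjusted p = 0.0503).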

How the results depend on the processing

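In the retina, 6 to 9 of the 9 cascade genes were called lower over all alternatives run, with Grm6, Trpm1, Pcp2, Prkca, Cabp5 and Vsx1 called under each. With scaling on 26 bipolar genes, which centres on 26 of the 42 genes of the 5 lists and so largely fixes their balance, the lists gave 8 lower and 11 higher, against 26 and 2. The shift of all genes with it (median 0.37) brought Nyx (0.053), Gpr179 (0.011), Cacnb2 (0.14), Elfn1 (0.12) and Tacr3 (0.00087) above 0. Higher calls in these lists were 4 with library totals and 1 in one fit of 12 libraries, which called 7 cascade genes. In the striatum the count of cascade genes called lower was 1 with DESeq2, in one fit of 12 libraries and without both libraries numbered 2, and 0 to 1 when 1 library was left out. Lower calls in the 5 lists were 4 with DESeq2, where 805 of all 16728 genes were called lower, and 0 at an adjusted p under 0.01. They were 11 in one fit of 12 libraries and 14 without both libraries numbered 2 (2 higher), settings whose calls over all genes are not given here. When 1 library was left out, the lists had 0 to 9 lower calls (0 to 2 higher). The replicate block gave 7 lower and 1 higher there and changed no call of a cascade gene in any comparison, also in the retina, where same-numbered R6/1 and wt libraries did not pair (correlations 0.138, −0.123 and 0.0168). Leaving out 1 library turned the sign of uncalled striatal values for Trpm1 (−0.46 to 1.59) and Gpr179 (−0.20 to 0.84) and of the tissue difference for Nyx (−0.11 to 0.43), and library totals that of Elfn2 in striatum (0.036). The causes were not tested. Striatal levels of at most 1.40 CPM limit what can be said of Trpm1, Nyx and Gpr179 there.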
